A study of Mus musculus with 10 samples.

Results

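Transcripts of 10 neutrophil-associated genes were followed through 10 mouse liver-cancer grafts to find whether the chemokines that call neutrophils, and the genes neutrophils are known to express, differed after inhibition of the histone methyltransferase EZH2. The set was chosen by name: 4 chemokine genes (Cxcl1, Cxcl2, Cxcl3 and Cxcl5) and 6 genes that neutrophils express (Cxcr2, Csf3r, Il1r2, Retnlg, S100a8 and S100a9), of 54986 gene identifiers on 55020 lines of the deposited table. Symbols located 9 of them, and Retnlg, whose symbol is spelled Retnig in the table, was located by its gene identifier.

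The tumours were Hepa1-6 cells, an established line of mouse hepatoma cells, implanted subcutaneously in C57/BL6 mice and left for 4 weeks. RNA was made from whole tumours, so host stroma, blood cells and overlying skin can contribute to it. There were 5 tumours from mice given vehicle (replicates 1, 2, 3, 5 and 6) and 5 from mice given GSK343, a small-molecule EZH2 inhibitor (replicates 1 to 5), described by the submitters as biological replicates. Titles starting with C were taken as vehicle by elimination. The treatment protocol also names a control antibody and an antibody to asialo-GM1, used to remove natural killer cells, and no label says which tumour received which. Mouse age and sex are not given in the labels used here.

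Neutrophils are short-lived white cells that leave the blood along gradients of chemokines carrying a glutamate-leucine-arginine (ELR) motif. CXCL1, CXCL2, CXCL3 and CXCL5 are such ligands and act through the receptor CXCR2. Their genes lie close together on mouse chromosome 5 and are classical targets of the inflammatory transcription factor NF-kB, while G-CSF, acting through CSF3R, drives neutrophil production in the bone marrow. S100A8 and S100A9 form calprotectin, an abundant neutrophil protein that stressed keratinocytes also make.

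In mm10 coordinates the chemokine genes are Cxcl5 (ENSMUSG00000029371.7, chr5:90759360-90761624), Cxcl3 (ENSMUSG00000029379.10, chr5:90786103-90789600), Cxcl1 (ENSMUSG00000029380.11, chr5:90891241-90893115) and Cxcl2 (ENSMUSG00000058427.10, chr5:90903871-90905938), all on the plus strand. RefSeq promoter sequences (GRCm38.p6) were found for 9 of the 10 genes; Cxcl5 was the one without an entry. The 250 bases before each start were searched on both strands for an NF-kB motif, GGG and TTTCC with any 2 bases between them, and a C/EBP motif, TT and GCAA with any 2 bases between them. No member promoter held both motifs. The NF-kB letters were present in Cxcl1, Cxcl2 and Cxcl3, and in 464 of 32851 promoters of the same length (1.41%). The C/EBP letters were present in S100a9 and Retnlg, and in 9.56% of all promoters. The 3 chemokine windows are shown because these neighbouring genes carry the same letters near their starts and are set against each other by their values below. Each is the plus strand, 5′ to 3′, at chr5:90891135-90891244 for Cxcl1, chr5:90903789-90903898 for Cxcl2 and chr5:90785991-90786100 for Cxcl3, with matches to the NF-kB motif in capitals. Distances are to the RefSeq start, at 90891245 for Cxcl1, 90903899 for Cxcl2 and 90786101 for Cxcl3, which differs from the start of the gene in the deposited table. The match farthest from that start begins 89 bases before it in Cxcl1 (on the minus strand), 97 in Cxcl2 and 73 in Cxcl3. A match is a description of the letters and not evidence of binding.
Cxcl1: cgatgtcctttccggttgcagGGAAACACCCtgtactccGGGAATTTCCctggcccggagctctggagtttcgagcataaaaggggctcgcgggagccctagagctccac
Cxcl2: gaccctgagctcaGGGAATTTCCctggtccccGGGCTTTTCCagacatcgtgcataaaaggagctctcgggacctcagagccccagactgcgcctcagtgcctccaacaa
Cxcl3: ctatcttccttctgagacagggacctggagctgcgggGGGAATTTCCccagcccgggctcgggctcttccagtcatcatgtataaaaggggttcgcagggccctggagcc

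Values are FPKM, fragments scaled by transcript length and library size, so levels can be compared between genes. Cxcl3 was the most abundant of the 10, with a mean of 51.7 FPKM over the tumours, and exceeded the next gene, S100a9 (26.6 FPKM), in 10 of 10 tumours. Below S100a9 came Retnlg (19.9), S100a8 (17.5), Cxcl2 (14.2), Cxcl1 (11.5), Il1r2 (8.89), Cxcl5 (6.99), Csf3r (3.26) and Cxcr2 (0.777 FPKM). Retnlg exceeded S100a8 in only 4 of 10 tumours and Il1r2 exceeded Cxcl5 in 6 of 10, so these neighbours in the order were not separated beyond their spread. Retnlg spanned the widest range, 14.5-fold between its lowest and highest tumour, and Cxcl5 the narrowest, 1.54-fold.

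No member passed the test across all genes. In limma on log2(FPKM + 1), 0 of the 9 members above the expression filter (a mean of at least 1 FPKM) had a Benjamini-Hochberg adjusted p under 0.05, where 12 of 14496 lines did (0.0828%, with 0.069% higher and 0.0138% lower in GSK343 tumours). At an unadjusted p under 0.05 there were 5 of 9 members, 4 higher and 1 lower in GSK343 tumours, against 17.6% of all lines (10.7% higher and 6.86% lower). The median log2 fold change was 0.66 for the 9 members, 0.04 for the 4 chemokines, 0.80 for the 5 tested neutrophil genes and -0.01 for all lines. Without vehicle replicate 2 the count over all lines was 96, and it ranged from 3 without GSK343 replicate 3 or 4 to 37 without GSK343 replicate 1 for the other single omissions; no member was called in any of them.

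**Figure D1:**
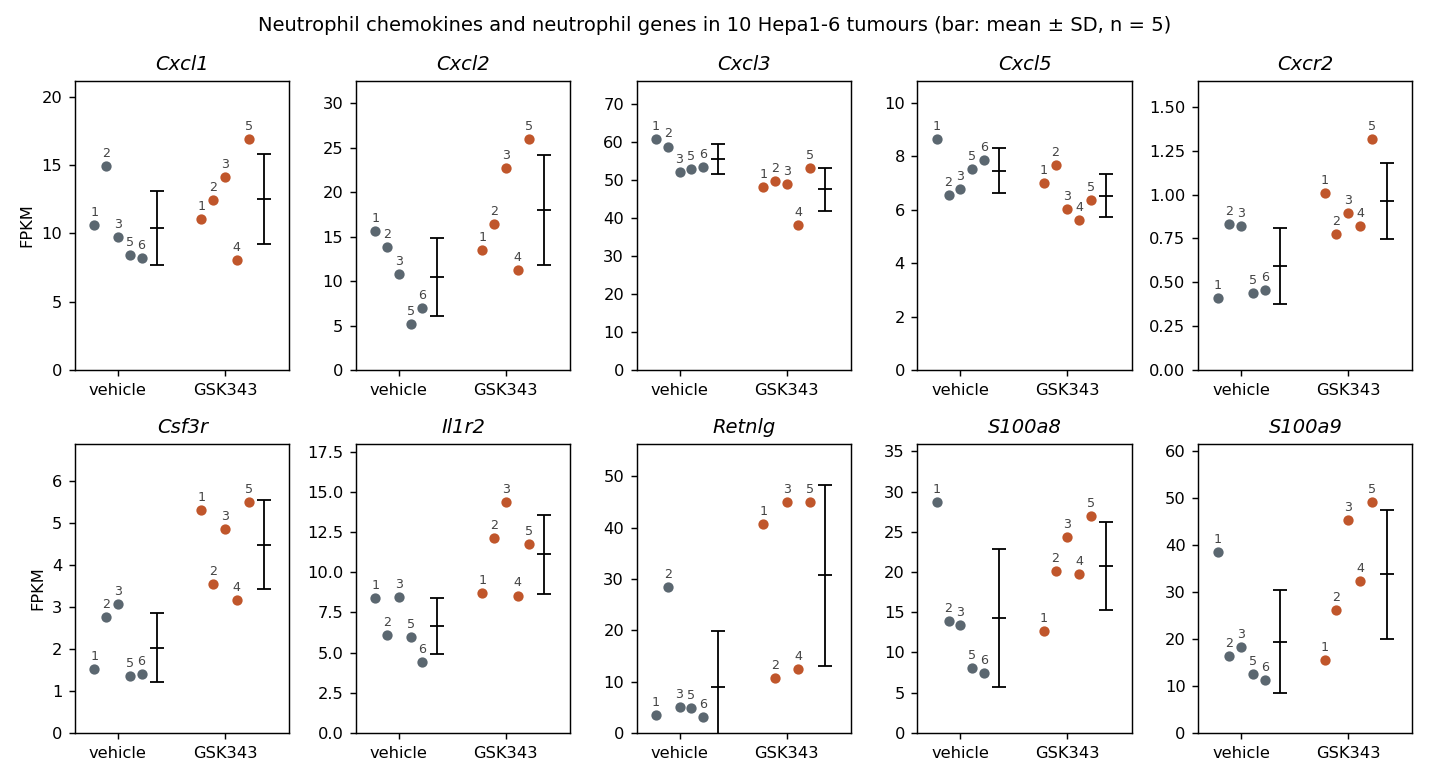
FPKM of the 10 genes (vertical axes, each from 0) in vehicle (grey) and GSK343 (orange) tumours, with points numbered by replicate and bars giving the mean ± SD (n = 5; the Retnlg vehicle bar runs below 0 and is cut there). The groups do not overlap for Csf3r and Il1r2, and vehicle replicate 2 lies between the high and the low GSK343 tumours for Retnlg.

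Among the ligands, Cxcl1 and Cxcl2 had higher means in GSK343 tumours, whereas Cxcl3 and Cxcl5 had lower ones. Cxcl2 measured 15.6, 13.9, 10.8, 5.18 and 7.04 FPKM in vehicle replicates 1, 2, 3, 5 and 6, and 13.5, 16.4, 22.8, 11.3 and 26.0 FPKM in GSK343 replicates 1 to 5. All 5 GSK343 values lay above the vehicle median, but the groups overlapped. The means were 10.5 ± 4.40 and 18.0 ± 6.21 FPKM (SD, n = 5 each), a log2 fold change of 0.76 (SE 0.302, 95% interval 0.09 to 1.43, limma adjusted p = 0.242; exact two-sided permutation p = 0.0635).

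Cxcl3 ran the other way. It measured 60.9, 58.9, 52.2, 52.9 and 53.5 FPKM in the vehicle tumours and 48.2, 49.7, 49.0, 38.1 and 53.3 FPKM in the GSK343 tumours. Every GSK343 tumour lay below the vehicle median, and only GSK343 replicate 5 reached into the vehicle range. The log2 fold change was -0.23 (SE 0.0921, limma adjusted p = 0.247; exact permutation p = 0.0238), from means of 55.7 ± 3.92 and 47.6 ± 5.68 FPKM (SD, n = 5 each). Without GSK343 replicate 4, the lowest tumour, it was -0.15.

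Cxcl1 differed little between the groups: 10.6, 14.9, 9.77, 8.43 and 8.19 FPKM in vehicle and 11.1, 12.4, 14.1, 8.06 and 16.9 FPKM in GSK343 tumours. Its lowest and highest values were both in GSK343 tumours, replicates 4 and 5. The log2 fold change was 0.24 (95% interval -0.19 to 0.68, limma adjusted p = 0.544). Leaving out vehicle replicate 2 gave 0.37; leaving out GSK343 replicate 4 gave 0.38, and replicate 5 gave 0.13. Cxcl5 measured 8.64, 6.53, 6.75, 7.53 and 7.84 FPKM in vehicle and 6.99, 7.66, 6.03, 5.60 and 6.34 FPKM in GSK343 tumours, with overlapping groups. Its log2 fold change was -0.17 (limma adjusted p = 0.396; exact permutation p = 0.119).

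Because each ratio is taken within a tumour, the 6 pairwise ratios of the chemokines were also compared, a choice made after their values were seen. The log2 ratio of Cxcl2 to Cxcl3 was -2.52 ± 0.59 in vehicle and -1.46 ± 0.37 in GSK343 tumours (SD, n = 5), without overlap. The difference was 1.06 (exact permutation p = 0.00794, the smallest this design allows, and 0.0476 adjusted over the 6 ratios). Cxcl2 had already been seen to be higher and Cxcl3 lower in GSK343 tumours, so a separation of their ratio was likely beforehand. Neither p covers that choice. The share of other gene ratios without overlap is not given here. With 1 tumour left out the difference was 0.85 to 1.19. The adjusted exact p was then 0.0238 to 0.0476 without a vehicle tumour and 0.0635 to 0.107 without a GSK343 tumour, in tests with fewer possible assignments. The log2 ratio of Cxcl3 to Cxcl5 had a difference of -0.04 (exact permutation p = 0.706). The other 4 ratios had adjusted p from 0.0595 to 0.152 in the same exact test.

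**Figure D2:**
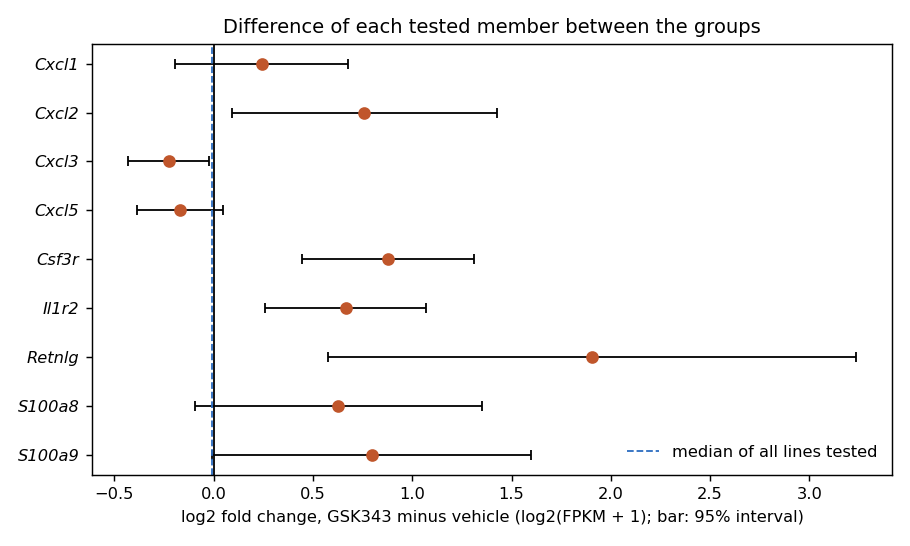
Log2 fold change of the 9 tested members (horizontal axis, GSK343 minus vehicle on log2(FPKM + 1)) with 95% intervals from limma; the dashed line is the median of all lines tested, -0.01. Intervals of Cxcl2, Csf3r, Il1r2 and Retnlg lie above 0 and that of Cxcl3 below it, before any adjustment for the number of lines.

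Csf3r and Il1r2 separated the groups without overlap. Csf3r, the G-CSF receptor (chr4:126024550-126044440), measured 1.52, 2.76, 3.08, 1.37 and 1.41 FPKM in vehicle and 5.33, 3.54, 4.87, 3.18 and 5.52 FPKM in GSK343 tumours. The lowest GSK343 tumour was above the highest vehicle tumour. The means were 2.03 ± 0.822 and 4.48 ± 1.06 FPKM, and the log2 fold change was 0.88 (SE 0.196, limma adjusted p = 0.189; exact permutation p = 0.00794). In whole tumours, more cells of a type and more RNA per cell cannot be told apart.

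Il1r2, a decoy receptor that binds interleukin-1 without signalling (chr1:40074079-40125231), measured 8.40, 6.11, 8.47, 5.95 and 4.44 FPKM in vehicle and 8.69, 12.1, 14.4, 8.55 and 11.8 FPKM in GSK343 tumours. The highest vehicle and lowest GSK343 values, vehicle replicate 3 and GSK343 replicate 4, nearly met. The log2 fold change was 0.66 (SE 0.183, limma adjusted p = 0.191). The predicted genes Gm16894 and Gm37347 overlap Il1r2, and their reads cannot be told from its own without a stated strand setting. Csf3r and Il1r2 were the 2 members whose groups did not overlap, against 1.42% of all lines with GSK343 higher; no member was lower without overlap, against 1.2%, and either direction took in 2.62% of lines.

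Cxcr2, the receptor of the 4 chemokines (chr1:74153989-74161246), was the weakest member and fell under the filter. It measured 0.409, 0.835, 0.818, 0.439 and 0.458 FPKM in vehicle and 1.01, 0.773, 0.892, 0.820 and 1.32 FPKM in GSK343 tumours. Vehicle replicates 2 and 3 lay within the GSK343 range and the other 3 below it (exact permutation p = 0.0397). In a limma fit without the filter its adjusted p was 0.357.

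Retnlg, which encodes a resistin-like protein of neutrophils and their precursors (chr16:48872621-48874496), had the largest fold change and the largest spread. It measured 3.42, 28.4, 5.07, 4.78 and 3.11 FPKM in vehicle and 40.6, 10.7, 45.1, 12.4 and 44.98 FPKM in GSK343 tumours. Vehicle replicate 2 was above GSK343 replicates 2 and 4, and the other 4 vehicle tumours were below every GSK343 tumour. The log2 fold change was 1.90 (SE 0.601, 95% interval 0.57 to 3.23, limma adjusted p = 0.2001; exact permutation p = 0.0397). Without vehicle replicate 2 it was 2.41, with an adjusted p of 0.0509 in limma.

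The calprotectin genes overlapped widely between the groups. S100a9 (chr3:90692632-90695721, minus strand) measured 38.5, 16.4, 18.3, 12.6 and 11.3 FPKM in vehicle and 15.6, 26.2, 45.2, 32.4 and 49.2 FPKM in GSK343 tumours. Vehicle replicate 1 exceeded 3 of the 5 GSK343 tumours. The log2 fold change was 0.80 (SE 0.363, limma adjusted p = 0.288; exact permutation p = 0.0952). S100a8 (chr3:90668978-90670035) measured 28.8, 13.9, 13.4, 8.01 and 7.44 FPKM in vehicle and 12.6, 20.2, 24.4, 19.7 and 26.9 FPKM in GSK343 tumours (log2 fold change 0.63, limma adjusted p = 0.345). Vehicle replicate 1 was the highest of all 10 tumours for S100a8, and without vehicle replicates 1 and 3 the log2 fold change was 1.02. The FPKM ratio of S100a9 to S100a8 stayed between 1.18 and 1.86.

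Transcripts of Ly6g, Mpo and Elane were scarce, while other genes of the neutrophil lists varied widely in level. Pglyrp1, Chil3, Mmp9 and G0s2 had means of 214, 62.1, 30.9 and 19.9 FPKM over the tumours. Of the granule genes and of the surface and mature neutrophil genes, 8 and 14 lay under the filter. Ly6g, the surface antigen used to identify mouse neutrophils, lay between 0.130 and 1.53 FPKM and its mean was 0.711 in vehicle and 0.546 in GSK343 tumours. The granule enzyme genes Mpo and Elane, transcribed in precursors, did not exceed 0.810 and 0.558 FPKM and were listed at 0 in 5 and 7 tumours. Of 18 granule genes 10 were tested and 0 passed. At an unadjusted limma p under 0.05, 5 were higher and 0 lower, against 10.7% and 6.86% of all lines. Ncf1 and Cybb, subunits of the phagocyte oxidase that macrophages share, had log2 fold changes of 0.77 and 1.09. Of 30 surface and mature neutrophil genes 16 were tested and 0 passed. At the unadjusted limma p 6 were higher and 1 lower, against the same shares of all lines. Acod1 and Fpr2, with log2 fold changes of 1.39 and 0.79, were among those with the smallest p. The names of the 6 genes are therefore used as gene names, not as a count of neutrophils.

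**Figure D3:**
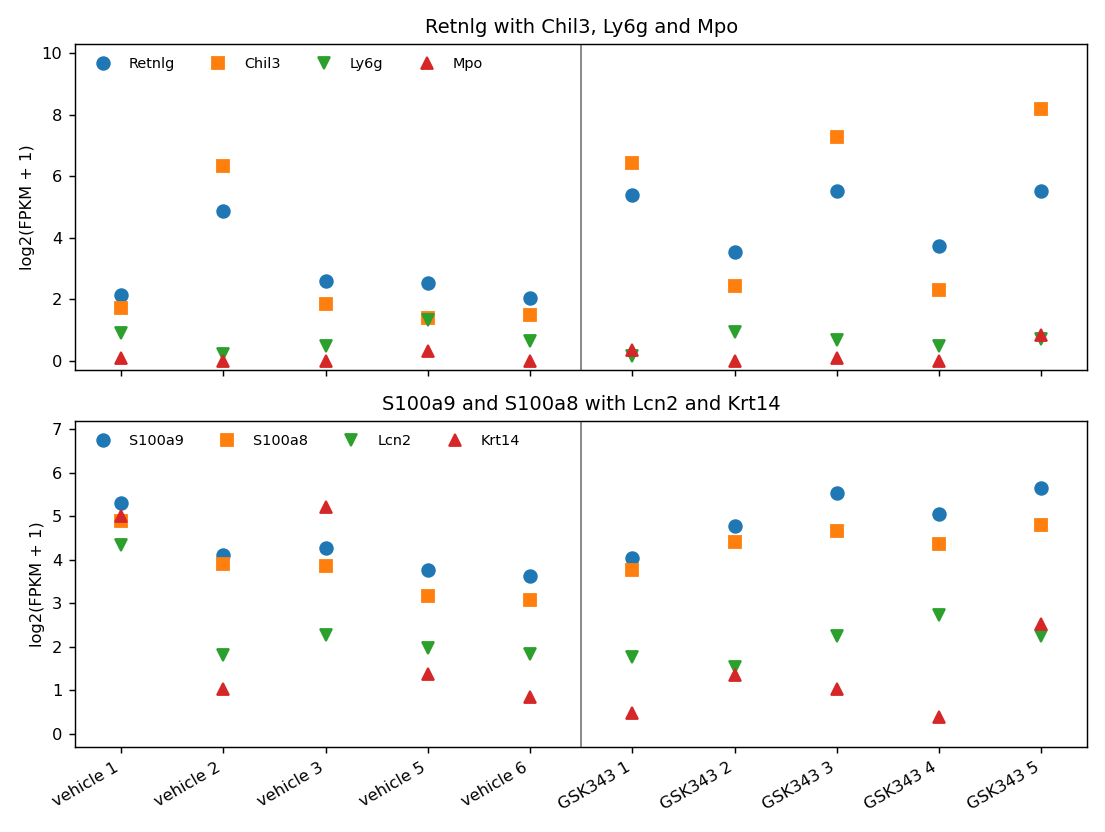
Log2(FPKM + 1) in each of the 10 tumours (horizontal axis) for Retnlg with Chil3, Ly6g and Mpo (upper) and for S100a9 and S100a8 with Lcn2 and Krt14 (lower). Retnlg and Chil3 are high together in vehicle 2 and GSK343 1, 3 and 5 while Ly6g and Mpo stay low; Krt14 is high in vehicle 1 and 3.

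Genes that induce or restrain these chemokines had positive estimates in 17 of 22 cases, against 6903 of 14496 lines in all, and none passed the limma test. Of 25 matched genes 22 were tested, with 10 higher and 0 lower at an unadjusted limma p under 0.05 (10.7% and 6.86% of all lines) and a median log2 fold change of 0.27. Tnf, an inflammatory cytokine, went from 0.793 ± 0.455 to 2.29 ± 1.19 FPKM (SD, n = 5). Il1b, encoding interleukin-1 beta, went from 17.7 ± 7.07 to 31.5 ± 8.11 FPKM. The log2 fold changes of Nfkbia, the NF-kB inhibitor, and Zc3h12a, a nuclease that degrades inflammatory messages, were 0.47 and 0.47. Csf3, which encodes G-CSF, did not exceed 0.8 FPKM, and Il17a was listed at 0 in every tumour but 1. Of 7 other chemokine ligands and chemokine receptors tested, not all of the ELR group, 0 passed. Cxcr4 and Pf4 had log2 fold changes of 0.68 and 0.54 and Cxcl15 of -0.56.

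The levels of marker lists of other cell types are given beside these values. No gene of these lists passed the adjusted limma test, the score ranges of the groups overlapped, and their part in the members' values was not tested. Of 15 pan-leukocyte genes 0 passed and 13 were higher at an unadjusted limma p under 0.05, against 10.7% of all lines. The pan-leukocyte score, the mean log2(FPKM + 1), was 3.06 to 4.28 in vehicle and 3.91 to 4.80 in GSK343 tumours. Of 14 macrophage and monocyte genes 11 were higher by the same measure, with scores of 3.84 to 5.33 and 4.76 to 5.51. By that measure 8 of 12 fibroblast genes and 3 of 9 T cell genes were higher. Of 8 mast cell, basophil and eosinophil genes 3 were higher. Of 11 hepatocyte and liver tumour genes 4 were lower and 0 higher, against 6.86% and 10.7% of all lines. Of 10 endothelial genes 1 was lower and 0 higher. After adding that pan-leukocyte score to the limma model, the log2 fold changes of Csf3r, Retnlg, Cxcl2 and Cxcl1 were 0.33, 0.17, 0.20 and -0.25. In that model those of S100a9, Il1r2 and S100a8 were 0.64, 0.48 and 0.47, and those of Cxcl3 and Cxcl5 were -0.33 and -0.02. Of 15 keratinocyte genes tested, 0 passed and 2 were lower at the unadjusted limma p, against 6.86% of all lines. The keratinocyte score was 3.68 and 4.32 in vehicle replicates 1 and 3, 1.32 to 1.49 in the other 3 vehicle tumours and 1.24 to 2.16 in the GSK343 tumours. Krt14 measured 30.9 and 36.3 FPKM in those vehicle tumours and 0.300 to 4.79 FPKM elsewhere. The mitochondrial share of summed FPKM was 7.17% in GSK343 replicate 3 and 7.11% in GSK343 replicate 5, against 2.63% to 5.05% in the others. Without those 2 tumours the log2 fold changes of Csf3r, Retnlg, Cxcl2, S100a9 and Cxcl1 were 0.75, 1.38, 0.44, 0.41 and 0.03. Those of Il1r2, S100a8, Cxcl3 and Cxcl5 were 0.51, 0.41, -0.30 and -0.13.

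Across the 10 tumours several pairs of members varied together, and the passing pairs shared members and did not form separate sets. Of 45 pairs, 12 had a Pearson adjusted permutation p under 0.05, all positive, and 8 did by Spearman's rho. No such share over all pairs of genes is given here, so the count is not shown to be particular to the members. The count was 2 without GSK343 replicate 5, 7 without vehicle replicate 6 and 7 without GSK343 replicate 3. Some of these correlations hold the difference between the groups, so r is also given on deviations from the group means, without a p.

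S100a8 and S100a9 were the closest pair (r = 0.96, rho = 0.94, adjusted permutation p = 0.00157 and 0.0054; r = 0.94 on deviations and 0.95 without the 2 farthest tumours). Csf3r and Cxcr2 followed (r = 0.95, rho = 0.85, adjusted permutation p = 0.00157 and 0.0274; r = 0.91 on deviations and 0.95 without the 2 farthest). Retnlg varied with Csf3r (r = 0.88, rho = 0.84, adjusted permutation p = 0.0121 and 0.0276; 0.75 on deviations and 0.83 without the 2 farthest). Csf3r also passed with Il1r2 (r = 0.76, rho = 0.88, adjusted permutation p = 0.0399 and 0.0255). With Cxcl2 its r was 0.75 (rho = 0.72, adjusted permutation p = 0.0399 and 0.0813). On deviations those r were 0.36 and 0.55. S100a9 had an r of 0.49 with Csf3r and 0.41 with Retnlg (adjusted permutation p = 0.237 and 0.335), and of 0.07 and 0.03 on deviations. With Il1r2 its r was 0.81 (rho = 0.71, adjusted permutation p = 0.0227 and 0.0865; 0.72 on deviations and 0.69 without the 2 farthest).

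Cxcl1 and Cxcl2 varied together (r = 0.84, rho = 0.82, adjusted permutation p = 0.0121 and 0.0323; 0.84 on deviations and 0.86 without the 2 farthest). Cxcl3 passed with neither over all tumours, at r = 0.35 with Cxcl1 and 0.03 with Cxcl2 (adjusted permutation p = 0.42 and 0.935). On deviations from the group means those values were 0.84 and 0.73. Cxcl2 also varied with S100a8 (r = 0.87, rho = 0.85, adjusted permutation p = 0.0121 and 0.0274; 0.82 on deviations and 0.81 without the 2 farthest). The r of Cxcl3 with Cxcl5 was 0.65 (adjusted permutation p = 0.0938) and -0.04 without vehicle replicate 1 and GSK343 replicate 4, so it rested on those tumours. Without vehicle replicate 2 alone it was 0.78 (adjusted permutation p = 0.0319), and on deviations 0.46.

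**Figure D4:**
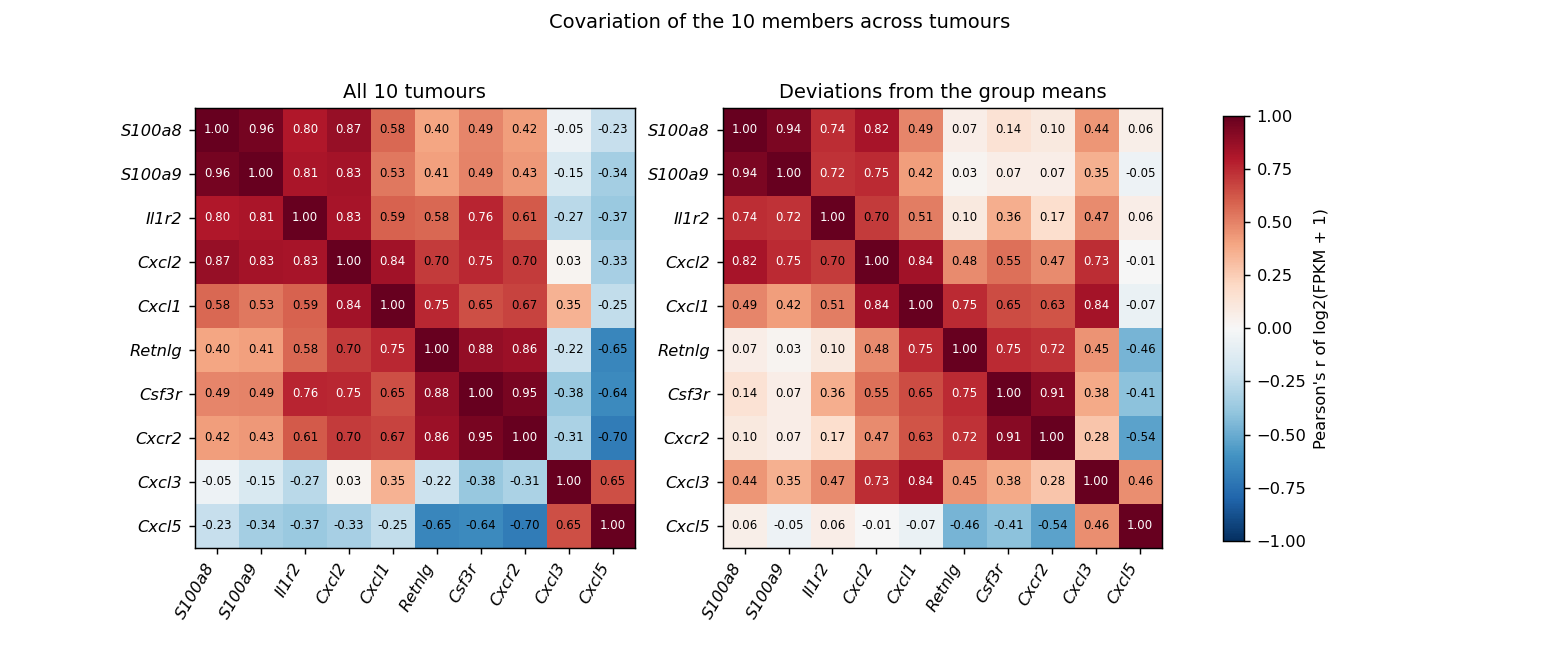
Pearson's r of log2(FPKM + 1) for each pair of the 10 members over all 10 tumours (left) and on deviations from the group means (right); red is positive and blue negative. S100a8 with S100a9 and Csf3r with Cxcr2 are high on both sides, whereas Cxcl3 with Cxcl1 goes from 0.35 to 0.84.

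Against 3 marker lists, 9 of 30 relations had a Pearson adjusted permutation p under 0.05 (6 by Spearman's rho), and 14 did without vehicle replicate 1. The share for genes other than the members is not given here. Csf3r, Cxcr2 and Retnlg followed the pan-leukocyte score with r = 0.94, 0.95 and 0.94 (rho = 0.87, 0.94 and 0.96; adjusted permutation p of r = 0.00252, 0.00165 and 0.0015), and 0.90, 0.89 and 0.89 on deviations. Leaving out the 2 farthest tumours gave 0.91, 0.92 and 0.90. With the macrophage and monocyte score the r of these 3 genes was as high, 0.92, 0.93 and 0.95 (adjusted permutation p = 0.0038, 0.00165 and 0.00165). On deviations it was 0.88, 0.87 and 0.90. With the pan-leukocyte score S100a9 had r = 0.47 (adjusted permutation p = 0.321) and 0.13 on deviations. Its r was 0.0027 without the 2 farthest tumours, GSK343 replicates 3 and 5. Without vehicle replicate 1 it was 0.77 (adjusted permutation p = 0.0359). Cxcl5 was the member with the most negative r to that score, -0.72 (rho = -0.68, adjusted permutation p = 0.0583). With the keratinocyte score S100a9, S100a8 and Il1r2 had r = 0.16, 0.23 and 0.04 (adjusted permutation p = 0.732, 0.682 and 0.939). On deviations those r were 0.58, 0.61 and 0.67, and those of the other members were -0.22 to 0.48.

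**Figure D5:**
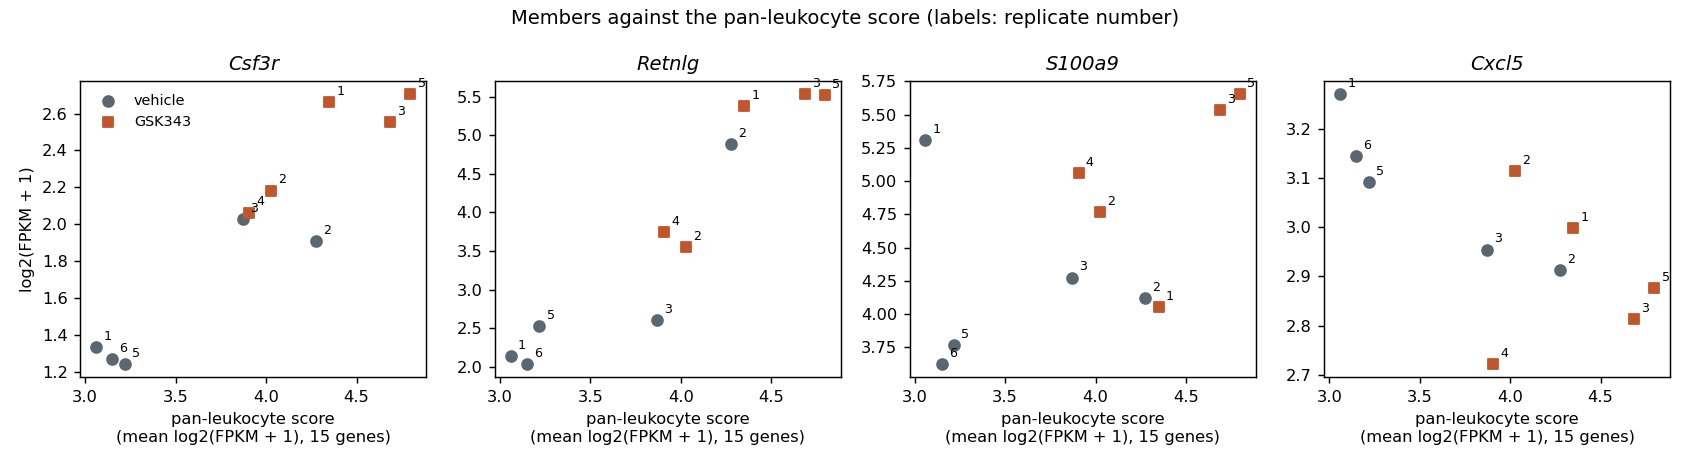
Log2(FPKM + 1) of 4 members (vertical axes) against the pan-leukocyte score (horizontal axes) in vehicle (grey circles) and GSK343 (orange squares) tumours, numbered by replicate. Csf3r and Retnlg follow the score (r = 0.94 each), vehicle 1 lies far above the other low-score tumours for S100a9, and Cxcl5 is lower at high scores (r = -0.72).

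The genes most like each pattern differed between members. Among 11414 protein-coding genes, those with the highest r to Csf3r were Birc3, Slfn8, Gpr34 and Cybb (all 0.98), and 337 genes (2.95%) reached 0.9. For S100a9 only 4 genes reached 0.9: S100a8 (0.96), Ldhd (0.93), Plac8 (0.93) and Hspb6 (0.91). The closest to Cxcl2 were Socs3 (0.95), Ier3 (0.95), Gadd45b (0.94) and Pacs1 (0.93), immediate stress and cytokine response genes apart from Pacs1. The closest to Cxcl5 were Rab3gap1 and Kif3a (0.93 each), Dusp16 and Rbmx2 (0.91 each). These r are over 10 tumours of both groups and are descriptions without a test.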

How the data were processed

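Poly-A RNA of 10 tumours was sequenced, 5 per group. The authors deposited 1 value per gene and tumour; the header names no unit, and the deposited values were read as FPKM from their size and from steps in single-exon genes, from which 38.4 to 50.9 M reads (M, mega) per tumour are inferred. FPKM allows no counting interval, and the number of tumours limits the precision. The submitters' processing notes name mm10, StringTie 1.3.3b, HISAT2 2.1.0 and Trimmomatic 0.33; the strand setting, annotation and options used were not given in the sources used here. Each tumour had 13985 to 14714 lines at 1 FPKM or more.

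Log2(FPKM + 1) was compared with limma 3.58.1 (intensity trend, R 4.3.3) over 14496 lines (mean of 1 FPKM or more), with two-sided Benjamini-Hochberg adjusted p; this scale understates changes of low genes. Single genes also had an exact permutation test over the 252 assignments of tumours, and correlations 100000 permutations. The limma test was also run on simulated data with independent noise for each gene and changes placed only in higher-expressed genes. Genes vary together in these tumours, so that run does not show the error rate here. The members and lists were chosen with earlier results of these data known. Named genes are the members, up to 3 genes of smallest p per list, defining markers, and the 4 genes most like Csf3r, S100a9, Cxcl2 and Cxcl5; some of them are not reported here. Alternatives covered pseudocount, filter, scaling, variance model, weights, covariates, a replicate block, summed lines and omitted tumours; leaving out vehicle 1 and 3, all 8 marker lists and the chemokine ratios were added after seeing the data.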

Additional observations from a re-analysis of the deposited data

Results flagged for a closer look

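Of 68 groups of 5 tumours checked, 7 (10.3%) held a tumour far from the others by Dixon's criterion. Chance gives about 1 in 20 for independent, normally distributed values. The groups share the same 10 tumours and include skewed FPKM values, so the shares cannot be compared as a test. S100a9 measured 38.5 FPKM in vehicle replicate 1 and 11.3 to 18.3 in the other vehicle tumours. Retnlg measured 28.4 FPKM in vehicle replicate 2 and 3.11 to 5.07 in the others. Among the GSK343 tumours, Ncf1 was 8.24 FPKM in replicate 4 against 14.1 to 14.6, and Fpr2 was 4.48 FPKM in replicate 3 against 2.19 to 2.74. Krt14 was 4.79 FPKM in GSK343 replicate 5 against 0.300 to 1.56, and the keratinocyte score there was 2.16 against 1.24 to 1.40. The hepatocyte and liver tumour score was 7.24 in vehicle replicate 1 and 6.33 to 6.45 in the other vehicle tumours.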

How the results depend on the processing

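No member had an adjusted limma p under 0.05 under any alternative run; the lowest were 0.0509 (Retnlg) and 0.0540 (Csf3r), both without vehicle replicate 2. The count over all lines, 12, was 6 without a filter, 3 at a mean of at least 5 FPKM, 7 after quantile normalization, 2 with the pan-leukocyte covariate and 3 with the keratinocyte covariate. It was 4 without GSK343 tumours 3 and 5, 6 without vehicle tumours 1 and 3, and 3 to 96 with single tumours left out (96 without vehicle 2, 37 without GSK343 1, 11 without vehicle 3, otherwise 3 to 6); the cause was not tested. With the replicate block it was 2. Same-numbered tumours did not deviate together (r from -0.33 to 0.03). These r cannot exclude a pairing, and no label says whether a number marks one. Members with an exact permutation p under 0.05 numbered 5 of 10 (15.3% of all lines tested), 3 to 6 with single tumours left out (3 without vehicle 5 or 6 or GSK343 3 or 5), 3 without GSK343 tumours 3 and 5, and 3 without vehicle tumours 1 and 3. Correlated pairs numbered 12, and 2 to 17 with single tumours left out; relations with marker lists numbered 9, and 6 to 14.

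Directions turned in these cases. With the pan-leukocyte covariate the log2 fold change was -0.25 for Cxcl1 and -0.0203 for Adgre1. For Krt14 it was 0.0721 without vehicle tumours 1 and 3. The r of Cxcl2 with Cxcl3 ranged from -0.0897 to 0.109, and that of S100a9 with the keratinocyte score from -0.0186 to 0.425, with single tumours left out; the r of Cxcl3 with the pan-leukocyte score was 0.40 on deviations from the group means. The log2 ratio difference of Cxcl3 to Cxcl5 ranged from -0.0870 to 0.0305.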

Other observations

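Chil3, a chitinase-like protein gene of myeloid cells, measured 80.2 FPKM in vehicle replicate 2 and 84.5, 153 and 286 FPKM in GSK343 replicates 1, 3 and 5, against 1.65 to 4.38 FPKM in the other 6 tumours, the same 4 tumours in which Retnlg was highest. Retnla, which encodes another resistin-like protein, measured 285, 105, 64.4 and 251 FPKM in those tumours and 13.5 to 47.0 FPKM in the others. Ngp and Ltf, neutrophil granule genes, were highest in GSK343 replicates 3 (3.64 and 3.10 FPKM) and 5 (2.19 and 1.89 FPKM) and did not exceed 0.685 FPKM elsewhere.

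Stfa1, Stfa2, Stfa3 and BC100530, stefin A family genes with near-identical copies whose reads may be split between them, were listed above 0 only in vehicle replicates 1 and 3, at 1.04 to 14.7 FPKM. Stfa2l1, another gene of that family, measured 0.208 to 1.64 FPKM in the GSK343 tumours. In vehicle it was 1.02 and 0.379 FPKM in replicates 1 and 3 and was listed at 0 in the others. Lcn2, which encodes lipocalin 2, measured 19.2 FPKM in vehicle replicate 1 and 1.90 to 5.67 FPKM in the others. Over 80 relations of the members with 8 marker lists, computed after the data were seen, 26 had an adjusted permutation p under 0.05. The share for other genes is not given here. Cxcl1 varied with the endothelial score (r = 0.94, rho = 0.95, adjusted permutation p = 0.0024 and 0.00288; 0.93 on deviations from the group means and 0.90 without the 2 farthest tumours). With the fibroblast score r was 0.89 for Cxcl1, 0.91 for Cxcr2, 0.91 for Retnlg and 0.89 for Csf3r (rho = 0.83, 0.90, 0.92 and 0.90; adjusted permutation p of r = 0.00473, 0.0027, 0.0027 and 0.0032). Without the 2 farthest tumours those r were 0.83, 0.84, 0.90 and 0.83. These genes and tumours were singled out after their values were seen.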
